A study of Homo sapiens with 8 samples.

Results

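Messenger RNAs of 8 histone variants, grouped as replication-independent, were followed through an eIF3d immunoprecipitation (IP) in human HEK293T cells with and without glucose. The members were the genes listed in the complete-medium table under the symbols H3F3A, H3F3B, H2AFZ, H2AFV, H2AFX, H2AFY, H1FX and H1F0. The glucose-free table lists the same Ensembl identifiers under newer symbols, so the members were joined by identifier. They were 8 of the 57978 genes present in both tables, and all 8 were among the 10100 genes tested, those with a mean of at least 1 RPKM (reads scaled to exon length and library size) over the 8 libraries.

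HEK293T cells derive from human embryonic kidney and make the large T antigen of SV40. The cells expressed eIF3d-TEV, the eIF3d subunit of translation initiation factor eIF3 with a site for TEV protease, in every group. The 4 groups, of 2 libraries each, were the IP from cells in glucose-free DMEM with 10% dialyzed FBS, the input of those cells, the IP from cells in complete DMEM with 10% FBS, and its input. All cells had 48 h in their medium, were crosslinked with ultraviolet light of 254 nm, and gave poly(A) RNA libraries. In the IP, beads against HA held eIF3, and TEV protease then cleaved eIF3d free. The media differed in the serum as well as in glucose, and these cannot be told apart. IPs from cells without the tagged factor were not analysed here, so a member's level on the beads alone is unknown. The labels do not say whether replicates were separate cultures, so p-values measure only how far the sequenced libraries vary, and that variation may be technical.

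Most histone mRNA of a dividing cell comes from clustered genes without introns, is made in S phase, and has a stem-loop at its end where other mRNAs have a poly(A) tail. Most variant histones are made through the whole cell cycle from mRNAs that carry a poly(A) tail, and dedicated chaperones place them in chromatin apart from replication. eIF3d is known as the eIF3 subunit that can hold the 5′ cap of some mRNAs.

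The sequences show how alike the paralogues are, which matters for how reads can be assigned. H3F3A (chromosome 1, 226061851 to 226072001, plus strand, GRCh38) and H3F3B (chromosome 17, 75776434 to 75785893, minus strand) encode the same 136 amino acids of histone H3.3. Their coding sequences match at 320 of 408 bases, and 79 codons differ without changing the amino acid. H2AFZ (chromosome 4, 99948086 to 99950388, minus strand) and H2AFV (chromosome 7, 44826791 to 44848083, minus strand) encode 2 forms of H2A.Z that differ at 3 of 128 amino acids, and match at 309 of 384 coding bases. The first 90 coding bases of each follow, from GENCODE release 29 transcripts, with capitals where a gene differs from its paralogue (21 bases in the H3.3 pair, 19 in the H2A.Z pair). H3F3AP4, a processed pseudogene of H3F3A on chromosome 2, matches all 408 coding bases of H3F3A, and its stretch has no capital for that reason.
H3F3A coding start: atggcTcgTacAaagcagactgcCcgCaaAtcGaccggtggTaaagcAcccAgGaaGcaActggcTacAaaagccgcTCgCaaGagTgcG
H3F3B coding start: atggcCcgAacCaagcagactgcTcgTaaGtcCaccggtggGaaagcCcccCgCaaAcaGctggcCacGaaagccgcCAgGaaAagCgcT
H3F3AP4 matching stretch: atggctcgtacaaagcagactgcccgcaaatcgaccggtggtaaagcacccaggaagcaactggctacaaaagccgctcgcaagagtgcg
H2AFZ coding start: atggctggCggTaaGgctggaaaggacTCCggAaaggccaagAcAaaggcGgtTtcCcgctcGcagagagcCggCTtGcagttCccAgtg
H2AFV coding start: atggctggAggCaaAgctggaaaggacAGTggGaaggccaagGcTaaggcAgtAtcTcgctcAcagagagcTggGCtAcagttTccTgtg

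H2AFX (chromosome 11, 119093854 to 119095467, minus strand) was the 1 member of 8 whose transcripts hold the histone stem-loop motif. The motif searched, on both strands, was a stem of GGNNCT, a loop of TTTN and the other arm AGNNCC, with no gap. In H2AFX the motif starts 50 bases after the stop codon, and a poly(A) signal hexamer (AATAAA or ATTAAA) lies in the last 50 bases of the transcript, so the gene carries the sequence of each kind of 3′ end. The motif occurred on the sense strand in 48 of 19593 coding genes (0.245%) and in 28 of 68 replication-dependent histone genes (41.2%). For these shares only the longest coding transcript of a gene was searched, but for the members every transcript. A gene without a match in this search is not shown to lack a stem-loop. The site is shown with the motif in capitals.
H2AFX stem-loop: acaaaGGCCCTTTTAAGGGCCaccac
H2AFX, H1FX (chromosome 3, 129314771 to 129316277, minus strand) and H1F0 (chromosome 22, 37805093 to 37807436, plus strand) each have 1 exon. H2AFY (chromosome 5, 135333900 to 135399914, minus strand) has 9 exons in the coding transcript listed for it here, of 2789 bases.

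Libraries held 8656825 to 43400524 reads, as recovered from the deposited values. The mitochondrial rRNAs took 0.399% to 0.613% of reads in the glucose-free IPs and 49.4% to 50.7% in the glucose-free inputs, against 1.26% and 10.6% in complete IP replicates 1 and 2 and 39.4% and 26.8% in the complete inputs. The mean absolute log2 difference between replicates was 0.43 in the complete IPs and 0.45 in the complete inputs. It was 0.16 in the glucose-free IPs and 0.14 in their inputs, all after the scaling described next. Complete IP replicate 2 stood apart in its mitochondrial rRNA share, and the complete IPs correlated less with each other (r = 0.90 across genes) than the libraries of the other groups (r = 0.96 to 0.99). Each library was therefore divided by its median over the tested genes, brought to 1 common level, and these values are called scaled RPKM. All 7 markers of the HEK293T line reached 1 RPKM, while 3 of 18 markers of other cell types did. The summed level of 5 blood markers was 2.09 to 4.50 RPKM in the glucose-free IPs, 3.83 to 4.15 in the glucose-free inputs, 1.74 to 3.10 in the complete IPs and 10.4 to 18.4 in the complete inputs. None of these 18 genes was at 0 in every library, and their part in the results was not tested.

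The IP was set against the input in each medium, the question of which mRNAs eIF3d held. In glucose-free medium 1 member rose in the IP (H1F0, where 27.6% of all tested genes rose) and 3 fell (H3F3A, H2AFZ and H2AFV, where 32.2% of all tested genes fell). In complete medium the same gene rose (30% of tested genes) and the same 3 fell (29.9% of tested genes). Of 8 members, 3 falling is near and 1 rising is under these background shares, so the counts alone do not set the members apart. The median log2 change was -0.29 for the members and -0.018 for all tested genes in glucose-free medium, and -0.40 for the members and 0.026 for all tested genes in complete medium. Calls are from limma with Benjamini-Hochberg adjusted p under 0.05 over 10100 genes, and changes are differences of log2(scaled RPKM + 1), a scale that understates the change of low genes.

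These changes are relative to the median gene of each library. In RPKM as deposited, without scaling, the median tested gene was itself 1.58 (log2) higher in the glucose-free IPs than in their inputs and 1.11 higher in the complete IPs than in theirs. On that scale all 8 members rose in the glucose-free IPs, where 81.7% of tested genes rose and 5.49% fell. In the complete IPs 5 members rose and 2 fell, where 63.6% of tested genes rose and 12.3% fell. Together the members took 1474 and 1997 RPM (reads scaled to the library's total alone) in the glucose-free IPs, against 320 and 371 in the glucose-free inputs. In complete medium they took 1208 and 921 RPM in the IPs, against 424 and 454 in the inputs.

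**Figure D1:**
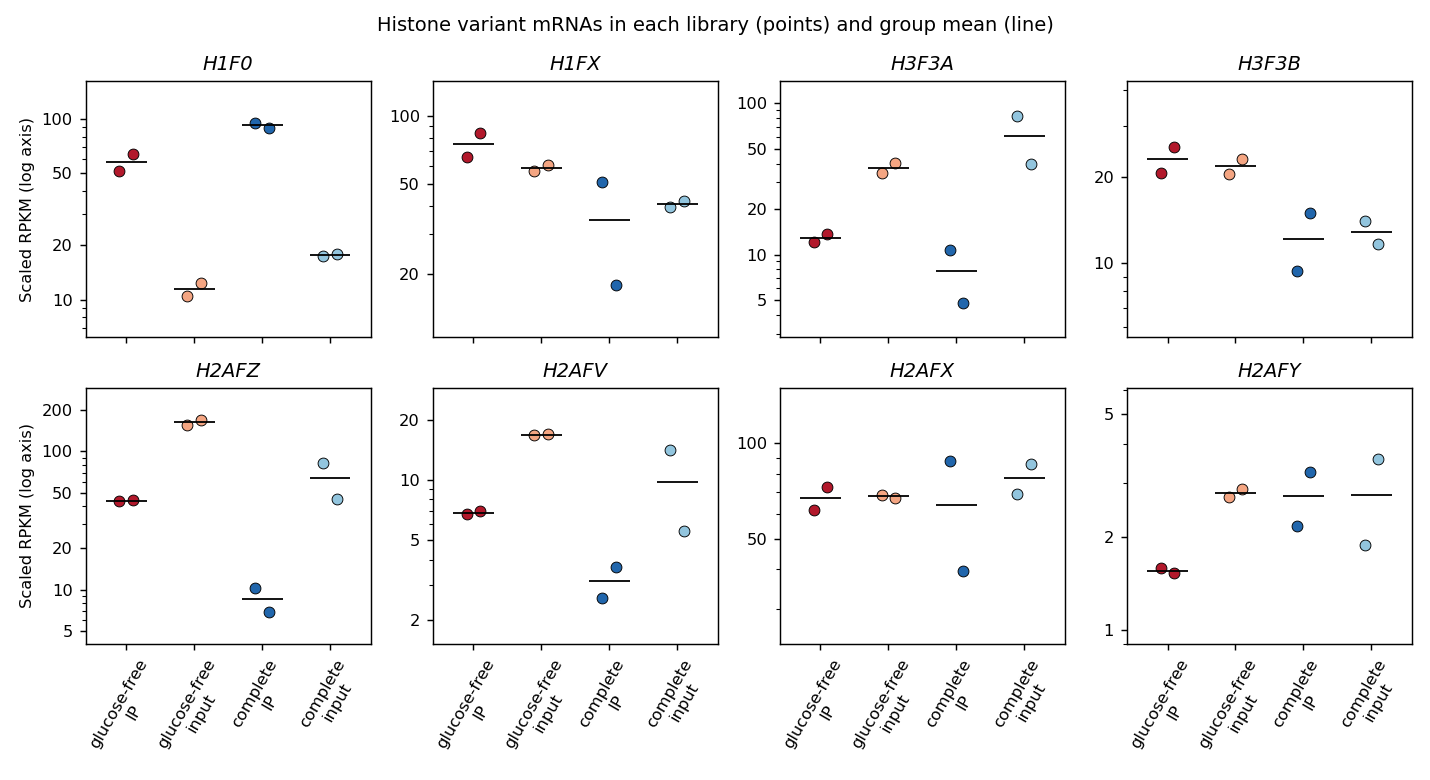
Scaled RPKM (vertical, log axis, a separate range for each gene) of the 8 histone variant mRNAs in the 4 groups (horizontal), with points for the 2 libraries of a group and a line at their mean. H1F0 sits at 51.6 and 63.8 in the glucose-free IPs and at 95.5 and 89.2 in the complete IPs, above the inputs in each medium, whereas H3F3A, H2AFZ and H2AFV sit below their inputs on this scale and, in glucose-free medium, above them in RPKM as deposited.

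The linker histone variants bind DNA between nucleosomes. H1F0 encodes H1.0, known for accumulating in differentiated and resting cells. H1F0 was at 51.6 and 63.8 scaled RPKM in the glucose-free IPs, against 10.5 and 12.4 in the glucose-free inputs. With complete medium, H1F0 was at 95.5 and 89.2 in the IPs, against 17.4 and 17.9 in the inputs. The IP libraries were above the input libraries in each medium. H1F0 rose in the IP by 2.23 ± 0.28 (log2, SE, adjusted p = 0.000196) in glucose-free medium and by 2.32 ± 0.28 (adjusted p = 0.000174) in complete medium, which is 4.71-fold and 4.99-fold. Of all tested genes, 98.1% and 99.0% had a lower change. It rose under each of the 17 other settings tried, by 2.08 to 4.83 in glucose-free medium and by 2.27 to 4.61 in complete medium.

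H1FX encodes H1.10, a linker variant found in many tissues. It was at 65.8 and 83.6 scaled RPKM in the glucose-free IPs, against 56.9 and 60.6 in the glucose-free inputs. The complete IPs had 51.2 and 17.9, against 39.4 and 42.2 in the complete inputs. Those IPs lay on either side of their inputs. Neither change passed, with 0.33 ± 0.46 (adjusted p = 0.555) in glucose-free and -0.41 ± 0.46 (adjusted p = 0.457) in complete medium. The complete value turns on 1 library, since it was -1.15 (adjusted p = 0.0163) without IP replicate 1 and 0.32 (adjusted p = 0.415) without IP replicate 2. In glucose-free medium H1FX passed as higher with quantile normalization (2.81, adjusted p = 0.00898) and in RPKM as deposited (3.08, adjusted p = 0.000108).

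The H3.3 genes parted from each other although they encode the same protein. H3.3 replaces H3 at active genes, where HIRA and its partners deposit it. H3F3A was at 12.1 and 13.7 scaled RPKM in the glucose-free IPs, against 34.6 and 40.3 in the glucose-free inputs. The complete IPs had H3F3A at 10.8 and 4.81, against 82.6 and 39.5 in the complete inputs. The IP libraries were below the inputs in each medium. H3F3A changed by -2.82 ± 0.43 (log2, adjusted p = 0.000623) in complete medium, a fall of 7.04-fold that held under all 19 other settings, at -3.34 to -1.24. In glucose-free medium H3F3A changed by -1.46 ± 0.43 (adjusted p = 0.0167), and this turned to 1.21 in RPKM as deposited. The call was lost under 8 of the 19. These were each removal of a glucose-free library, quantile normalization, centring after the log, no filter, and a mean of at least 5 RPKM. H3F3A thus passed as lower in glucose-free medium under none of the 3 other scalings. Leaving out single libraries moved the value only between -1.57 and -1.36. The fit gives a gene 1 variance over all 4 groups, so the complete libraries also set the SE in glucose-free medium.

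H3F3B was at 20.7 and 25.4 scaled RPKM in the glucose-free IPs, against 20.5 and 23.0 in the glucose-free inputs. In complete medium it was at 9.39 and 15.0 in the IPs, against 14.0 and 11.7 in the inputs. IP and input libraries overlapped in each medium. The changes were 0.073 ± 0.29 (adjusted p = 0.847) in glucose-free medium and -0.10 ± 0.29 (adjusted p = 0.782) in complete medium. H3F3B passed as higher in the glucose-free IPs when libraries were centred after the log (0.81, adjusted p = 0.0407), with quantile normalization (1.51, adjusted p = 0.00854) and in RPKM as deposited (2.73, adjusted p = 1.62e-05). In complete medium its sign also turned under those 3, to 0.25, 0.71 and 1.46, the last with adjusted p = 0.00215.

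H2A.Z, at promoters and enhancers, is placed by the SRCAP and EP400 complexes, and both of its genes fell in the IP. H2AFZ was at 43.5 and 44.7 scaled RPKM in the glucose-free IPs, against 155 and 169 in the glucose-free inputs. The complete IPs had H2AFZ at 10.3 and 6.87, against 81.9 and 45.6 in the complete inputs. No IP library reached the level of an input library of its medium. H2AFZ changed by -2.72 ± 0.36 (adjusted p = 0.000303) in complete medium, a 6.57-fold fall that held under all 17 other settings, at -3.13 to -1.12. In glucose-free medium it changed by -1.86 ± 0.36 (adjusted p = 0.00215), a 3.62-fold fall that turned to 0.76 (adjusted p = 0.0920) with quantile normalization and to 0.92 (adjusted p = 0.0349) in RPKM as deposited.

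H2AFV was the lower of the pair in every library in RPKM, though not in every library by reads or per base of transcript. It was at 6.73 and 7.00 scaled RPKM in the glucose-free IPs, against 16.8 and 17.0 in the glucose-free inputs. In complete medium it was at 2.57 and 3.68 in the IPs, against 14.1 and 5.59 in the inputs. The IP libraries were again below the inputs. H2AFV changed by -1.19 ± 0.36 (adjusted p = 0.0201) in glucose-free medium and by -1.29 ± 0.36 (adjusted p = 0.0140) in complete medium, and in RPKM as deposited both turned, to 1.37 and 0.13. The glucose-free call was lost under 8 of 17 other settings. These were each removal of a glucose-free library, quantile normalization, centring after the log, no filter, and a mean of at least 5 RPKM. H2AFV thus passed as lower in glucose-free medium under none of the 3 other scalings. Leaving out single libraries moved the glucose-free value only between -1.21 and -1.16. The complete call was lost under 3, the removal of complete IP replicate 1 among them.

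H2AFX encodes H2AX, which is phosphorylated around DNA breaks. It was at 61.8 and 72.6 scaled RPKM in the glucose-free IPs, against 68.8 and 67.2 in the glucose-free inputs. With complete medium, H2AFX was at 88.0 and 39.5 in the IPs, against 69.3 and 86.3 in the inputs. IP and input overlapped in each medium, with changes of -0.022 ± 0.41 (adjusted p = 0.968) and -0.38 ± 0.41 (adjusted p = 0.441) in glucose-free and complete medium. Without complete IP replicate 1 the complete value was -0.95 (adjusted p = 0.0393), and without replicate 2 it was 0.18 (adjusted p = 0.661). Quantile normalization called it higher in each medium, by 2.44 (adjusted p = 0.00686) in glucose-free and 2.10 (adjusted p = 0.0104) in complete medium, as did RPKM as deposited.

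H2AFY encodes macroH2A1, a variant with a large extra domain that is enriched on the inactive X chromosome and in repressed chromatin. It was the lowest member in RPKM, at 1.58 and 1.53 scaled RPKM in the glucose-free IPs, against 2.69 and 2.86 in the glucose-free inputs. With complete medium, H2AFY was at 2.17 and 3.25 in the IPs, against 1.89 and 3.58 in the inputs. The glucose-free IPs were below their inputs and the complete libraries overlapped. Changes were -0.56 ± 0.25 (adjusted p = 0.0838) in glucose-free medium and 0.015 ± 0.25 (adjusted p = 0.967) in complete medium. Across the 10100 genes, the change in the IP moved with log2 exon length (r = 0.53 in glucose-free and 0.47 in complete medium, a description over genes of the same libraries). H2AFY has 17730 exonic bases over all its transcripts, more than 99.1% of tested genes. With each library's trend on that length removed, it fell by 1.23 (adjusted p = 0.00173) in glucose-free and by 1.06 (adjusted p = 0.00412) in complete medium. Those bases are 6.36 times its listed coding transcript of 2789 bases, so the length removed rests partly on annotation. In RPKM as deposited H2AFY instead passed as higher, by 1.29 in glucose-free and by 1.22 in complete medium.

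**Figure D2:**
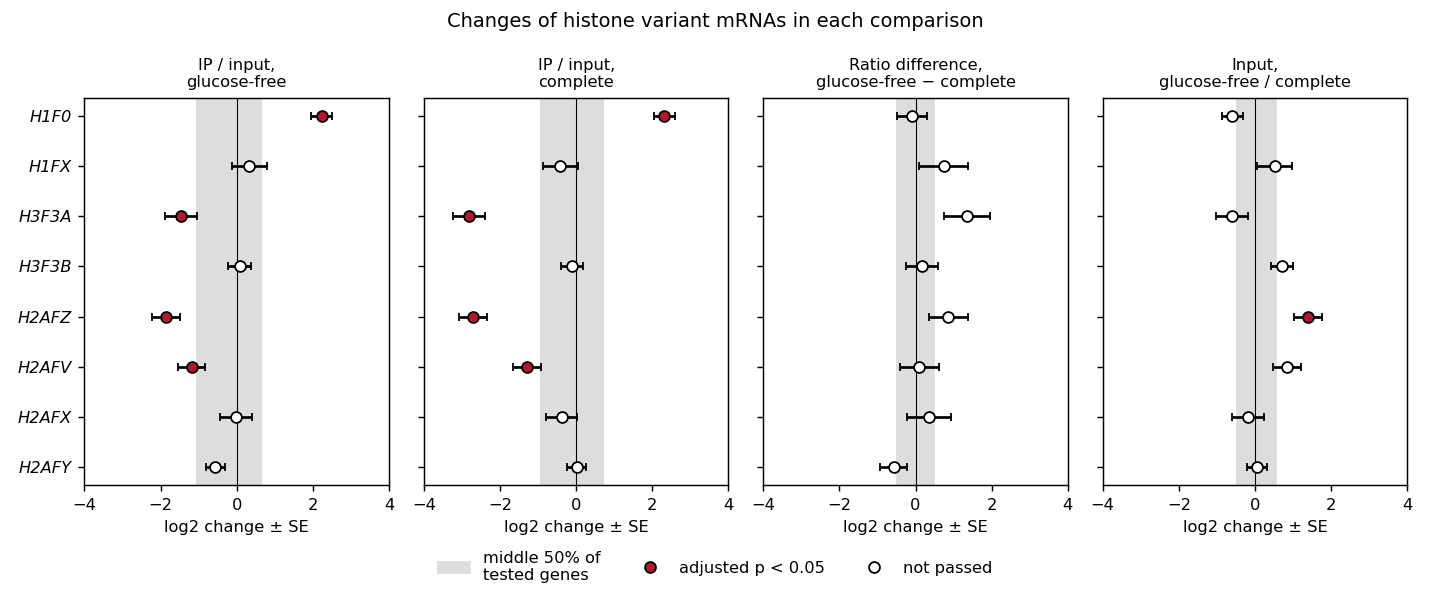
Log2 change of scaled RPKM (horizontal, bars are SE of the fit over 8 libraries) of each member in the 4 comparisons, with the middle 50% of tested genes in grey and filled points for an adjusted p under 0.05. H1F0 is at 2.23 and 2.32 in the IP comparisons and H3F3A at -1.46 and -2.82, the glucose-free value of H3F3A turning to 1.21 in RPKM as deposited, and no point is filled in the ratio difference.

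Counted by libraries that do not overlap, 2 members were above and 4 below their inputs in the glucose-free IPs, where 44.6% of tested genes were above and 45.9% below. In complete medium 1 member was above and 3 below, where 37.9% of tested genes were above and 36.1% below.

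The members' order of abundance differed between the groups. RPKM divide by a gene's exon union, all exonic bases of its transcripts. That union is 6.36 times the listed coding transcript for H2AFY and 6.32 times for H2AFV, 2.27 to 2.41 times for H3F3A, H3F3B and H2AFZ, and equal to it for H2AFX, H1FX and H1F0, so the order rests partly on annotation. In the glucose-free IPs the order of mean RPKM as deposited was H1FX, H2AFX, H1F0, H2AFZ, H3F3B, H3F3A, H2AFV and H2AFY, and each of the first 4 overlapped with the next of them. In the glucose-free inputs it was H2AFZ, H2AFX, H1FX, H3F3A, H3F3B, H2AFV, H1F0 and H2AFY, and no neighbours overlapped. H1F0, next to last in the glucose-free inputs at 3.58 and 4.51 RPKM, was among the first 4 in the glucose-free IPs at 118 and 169 RPKM. In the complete IPs H1F0 was first, at 190 and 166 RPKM, overlapping with H2AFX at 175 and 73.5 RPKM. In the complete inputs H1F0 was at 8.75 and 12.8 RPKM, after H2AFX, H2AFZ, H3F3A and H1FX, each of which overlapped with the next of these 4. Divided by the listed transcript in place of the union, an alternative chosen after the data were seen, H1F0 was number 4 in the glucose-free IPs and last in the glucose-free inputs, and number 1 in the complete IPs and last in the complete inputs. By that length H2AFY was last in the IPs of each medium but number 7 in the inputs, and H2AFZ was first in the glucose-free IPs. Several of these ranks were not separated. H2AFY and H1F0 overlapped in the complete inputs, every neighbouring pair overlapped in the complete IPs, and H1F0 overlapped with H2AFX and H3F3B in the glucose-free IPs.

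Whether the IP to input ratio differed between media was tested as an interaction, glucose-free minus complete. In limma 0 of 8 members passed in either direction, where 1.95% of tested genes were higher and 3.08% lower. At an unadjusted p under 0.05 it was also 0 of 8 members, against 2715 of 10100 genes. H3F3A had the largest difference of the members, 1.35 ± 0.61 (adjusted p = 0.194), from changes of -1.46 in glucose-free and -2.82 in complete medium. H2AFZ followed with 0.86 ± 0.51 (adjusted p = 0.307) and H1FX with 0.75 ± 0.65 (adjusted p = 0.471). H1F0 differed by -0.085 ± 0.39 (adjusted p = 0.903), a value smaller than its SE. The other 4 members lay between -0.58 and 0.36.

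Some settings brought single members past the threshold. H1FX was 1.48 ± 0.40 (adjusted p = 0.0376) without complete IP replicate 1, and 0.010 ± 0.41 (adjusted p = 0.990) without complete IP replicate 2. In RPKM as deposited, where the median tested gene was 0.68 higher, H3F3A differed by 2.45 (adjusted p = 0.0133) and H2AFZ by 2.04 (adjusted p = 0.0163), and 29.3% of tested genes were higher. With quantile normalization, where the median tested gene was at -0.060 and 7.51% of tested genes were higher, H2AFZ differed by 2.47 (adjusted p = 0.0172).

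The inputs were compared to see whether the mRNAs themselves differed between media. H2AFZ rose in the glucose-free inputs, and no member fell, where 18.4% of tested genes rose and 15.6% fell. At 155 and 169 scaled RPKM in the glucose-free inputs, against 81.9 and 45.6 in the complete inputs, H2AFZ was higher in every glucose-free library. The difference was 1.39 ± 0.36 (adjusted p = 0.0197), 2.63-fold. It kept its sign under all 17 other settings and missed the threshold under 6. These were each removal of a glucose-free input, no filter, and all 3 other scalings (centred after the log, quantile normalization, RPKM as deposited). Leaving out single libraries moved the difference between 0.98 and 1.81. H2AFV (0.84 ± 0.36, adjusted p = 0.102) and H3F3B (0.72 ± 0.29, adjusted p = 0.0874) also had their glucose-free inputs above the complete ones without passing. H1F0 had its glucose-free inputs below the complete ones, at -0.59 ± 0.28 (adjusted p = 0.127). In bulk libraries, fewer cells that make an mRNA and less of it per cell cannot be told apart. By libraries, 4 members were above and 2 below in the glucose-free inputs, where 36.3% of tested genes were above and 38.8% below.

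Paralogues were also compared within a library, since a ratio of 2 genes there needs no scaling. The length by which each gene is divided sets the level of such a ratio but not its difference between libraries. Across all tested genes, however, the change in the IP moved with log2 exon length (r = 0.53 in glucose-free and 0.47 in complete medium). H3F3B (6134 exonic bases) is longer than H3F3A (3146), and H2AFV (4749) is longer than H2AFZ (2303). In each pair the longer gene had the higher change in the IP. Whether length plays a part in these ratios was not tested. The log2 ratio of H3F3B to H3F3A was 0.77 and 0.88 in the glucose-free IPs, against -0.76 and -0.81 in the glucose-free inputs. In complete medium it was -0.20 and 1.64 in the IPs, against -2.56 and -1.75 in the inputs. Every IP library had a higher H3F3B to H3F3A ratio than every input library, with mean differences of 1.61 in glucose-free and 2.88 in complete medium. The glucose-free inputs were 1.38 above the complete inputs. For each, the exact two-sided permutation test gave p = 0.333, the smallest that 2 libraries against 2 allow.

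The log2 ratio of H2AFZ to H2AFV was 2.69 and 2.68 in the glucose-free IPs, against 3.21 and 3.31 in the glucose-free inputs. In complete medium it was 2.01 and 0.90 in the IPs, against 2.54 and 3.03 in the inputs. The ratio was lower in the IPs than in the inputs of each medium, with mean differences of -0.58 in glucose-free and -1.33 in complete medium (exact permutation p = 0.333 each). H2AFZ exceeded H2AFV in 8 of 8 libraries in RPKM, but in 7 of 8 by reads and per base of the listed transcripts. In complete IP replicate 2 H2AFZ had 625 reads and H2AFV 690, a log2 ratio of -0.52 by transcript length.

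**Figure D3:**
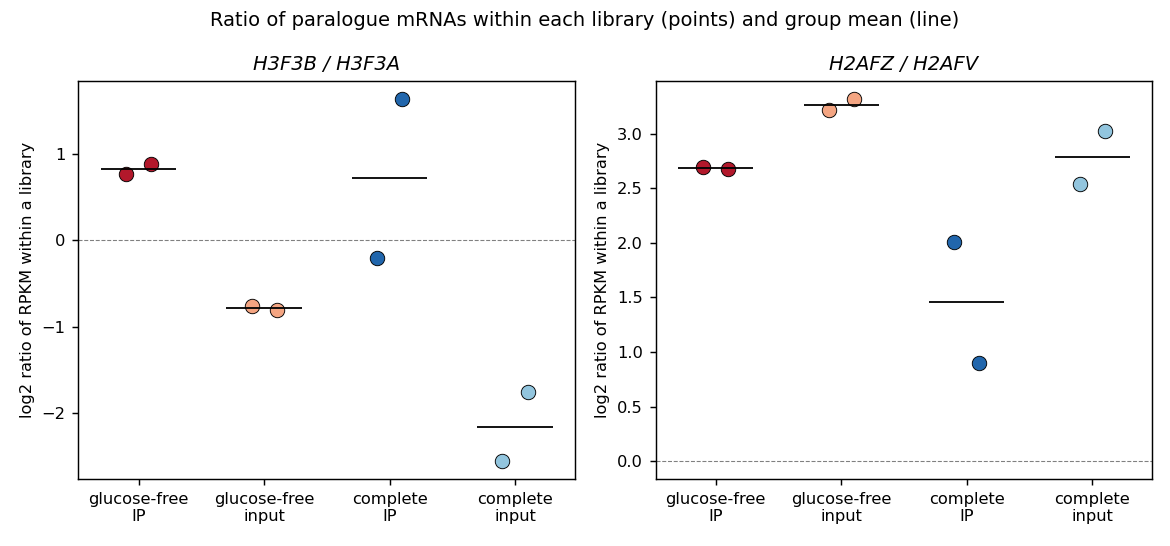
Log2 ratio of the RPKM of H3F3B to H3F3A (left) and of H2AFZ to H2AFV (right) in each library (points) with the group mean (line), by group along the horizontal axis. H3F3B to H3F3A is at 0.77 and 0.88 in the glucose-free IPs against -0.76 and -0.81 in the glucose-free inputs, and H2AFZ to H2AFV stays above 0 in all libraries in RPKM, though by transcript length it is -0.52 in complete IP replicate 2.

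Part of the H3F3A signal cannot be assigned with certainty, because processed pseudogenes, copies of its mRNA put back into the genome, share its sequence. Of the 50-base stretches in H3F3A transcripts, 362 of 3092 (11.7%) also occur in other genes, all 362 of them in H3F3AP4, 286 in H3F3AP6 and 146 in H3F3BP1, and 12 processed pseudogenes share at least 1. H3F3AP4, with exons of 411 bases, was listed at 48.3 and 82.1 RPKM in the glucose-free IPs, against 24.3 and 32.4 in the glucose-free inputs. In complete medium H3F3AP4 was at 30.1 and 17.4 RPKM in the IPs, against 69.9 and 48.1 in the inputs. H3F3AP4 was thus above H3F3A in RPKM in all 8 libraries, but in 0 of 8 by reads or when H3F3A was divided by its listed transcript, and how the authors' counting shared such reads is not given in the sources used here. With the reads of H3F3AP4, H3F3AP5 and H3F3AP6 added to H3F3A, where they made up 22.1% to 31.7% of the sum, the change was -1.54 (adjusted p = 0.0127) in the glucose-free and -2.85 (adjusted p = 0.00056) in the complete IP. With the reads of all 12 sharing pseudogenes added, 27.6% to 41.6% of the sum, it was -1.48 (adjusted p = 0.0156) in the glucose-free and -2.93 (adjusted p = 0.000491) in the complete IP. Both sums were chosen after the data were seen.

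Other members shared sequence with copies or with genes on the opposite strand. Of 15 pseudogenes listed under the members' symbols, 4 reached 1 RPKM in a library: H3F3AP4, H3F3AP6, H3F3BP1 and H2AFZP3. H3F3B shared 220 of its 6444 50-base stretches with H3F3C, 169 with UNK on the opposite strand, and none with H3F3A. Reads listed under H3F3C, a copy, may therefore come from H3F3B or the reverse, and the reads of the pair were not summed. H2AFZ shared 234 of its 2531 stretches with other genes, and 9.68% of its exonic bases overlap AC097460.1 on the other strand. H2AFV shared 146 of its 4838 stretches with other genes, 104 of them with H2AFVP1. H2AFY shares 28.0% of its exonic bases with C5orf66, which lies on the other strand and was at 0.262 RPKM at most. H1FX shares 22.9% with the antisense gene H1FX-AS1, at most at 3.33 RPKM. The use of strand in counting is not given, so sense and antisense reads of these pairs cannot be told apart. H1F0 shared no 50-base stretch with another gene, and 285 to 10962 reads lay behind its values.

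**Figure D4:**
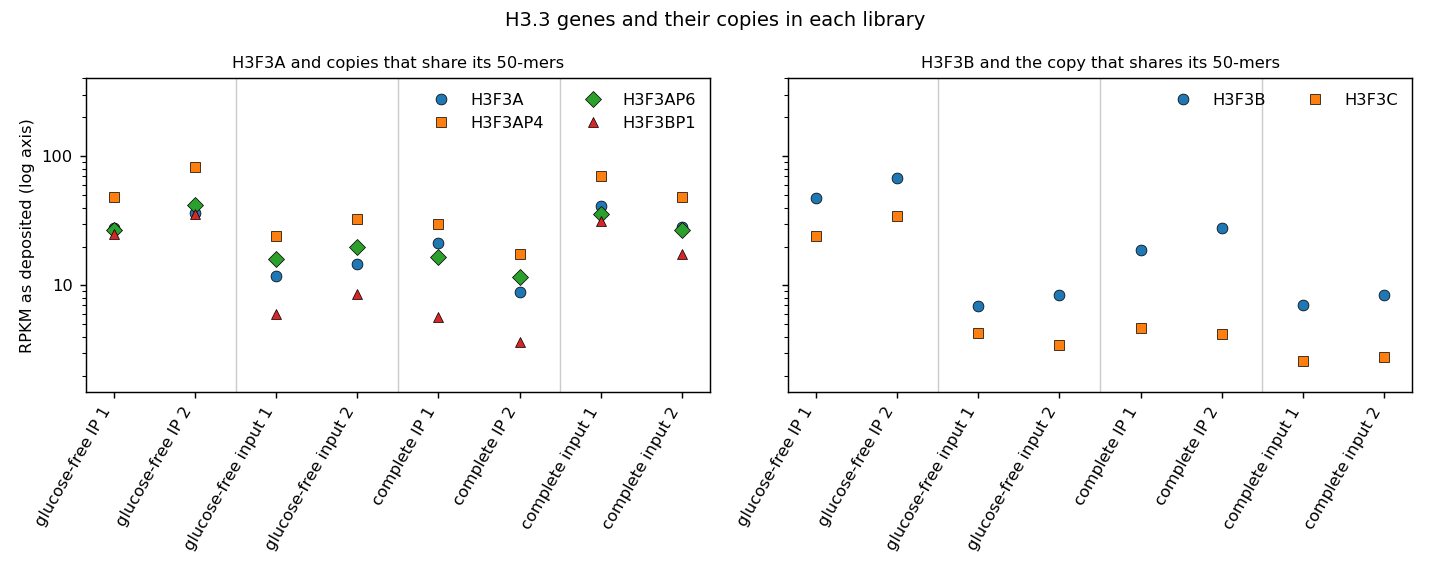
RPKM as deposited (vertical, log axis) of H3F3A and 3 pseudogenes that share its 50-base stretches (left) and of H3F3B and H3F3C (right), by library along the horizontal axis. H3F3AP4 lies above H3F3A in all 8 libraries in RPKM, though in 0 of 8 by reads, for example at 48.3 and 82.1 in the glucose-free IPs, where H3F3A is at 27.8 and 36.4.

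The other genes of the histone variant pathways were counted in the same fit. Of 7 genes for H3.3 deposition, 6 were tested, and 3 rose in the glucose-free IP and 4 in the complete IP, with none falling (medians 0.87 and 0.75). Among all tested genes 27.6% rose and 32.2% fell in the glucose-free IP, and 30% rose and 29.9% fell in the complete IP, and these shares are also the background of the lists that follow. UBN1, which bridges HIRA to H3.3, rose by 2.86 ± 0.27 (adjusted p = 6.05e-05) in glucose-free and by 2.11 ± 0.27 (adjusted p = 0.000254) in complete medium. HIRA itself rose by 1.69 ± 0.25 (adjusted p = 0.000479) in glucose-free and by 0.84 ± 0.25 (adjusted p = 0.0178) in complete medium. ASF1A, a chaperone that hands H3.3 with H4 to HIRA, had -0.33 (adjusted p = 0.0790) in glucose-free and -0.082 (adjusted p = 0.653) in complete medium. Under the other scalings and with the length trend removed, settings added for the lists after the data were seen, UBN1 rose in each medium, and the list held at most 2 genes that fell. In RPKM as deposited 6 of the 6 rose in glucose-free and 5 in complete medium, where 81.7% and 63.6% of tested genes rose.

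Genes for H2A.Z exchange went in each direction on scaled RPKM. Of 15 listed, 14 were tested, and 4 rose and 7 fell in the glucose-free IP, against 5 and 4 in the complete IP (medians -0.42 and -0.10), near the shares of all tested genes in complete medium. In RPKM as deposited 12 rose and 1 fell in the glucose-free IP, where 81.7% of tested genes rose and 5.49% fell. In the complete IP 9 rose and 1 fell, where 63.6% of tested genes rose and 12.3% fell. EP400, an ATPase of an exchange complex, rose by 1.72 ± 0.26 (adjusted p = 0.000574) in glucose-free and by 2.04 ± 0.26 (adjusted p = 0.000256) in complete medium. ZNHIT1, a small subunit of the SRCAP complex, fell by 3.27 (adjusted p = 5.88e-05) in glucose-free and by 3.83 (adjusted p = 3.46e-05) in complete medium, and it passed as lower under the other 3 scalings and with the length trend removed. ANP32E, which removes H2A.Z, rose by 2.33 ± 0.25 (adjusted p = 0.000112) in complete medium and had 0.65 ± 0.25 (adjusted p = 0.0521) in glucose-free medium. Its ratio difference was -1.68 ± 0.36 (adjusted p = 0.0385), and -0.68 (adjusted p = 0.278) in RPKM as deposited.

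Of 11 genes of the H2AX phosphorylation response, 7 were tested, and 1 rose in the glucose-free IP and 4 in the complete IP (medians 0.29 and 0.85), where 27.6% and 30% of tested genes rose. In RPKM as deposited 7 of the 7 rose in each medium, where 81.7% of tested genes rose in glucose-free and 63.6% in complete medium. PRKDC, a kinase of H2AX, rose by 1.69 ± 0.49 (adjusted p = 0.0157) in glucose-free and by 2.20 ± 0.49 (adjusted p = 0.00450) in complete medium, and missed the threshold in each with the length trend removed (adjusted p = 0.102 and 0.0683) and in glucose-free medium with quantile normalization (adjusted p = 0.0620). MDC1, which binds phosphorylated H2AX, was lower in the glucose-free than in the complete inputs, at -2.05 ± 0.32 (adjusted p = 0.00231). Of 17 general histone chaperones, 16 were tested, and 2 rose and 2 fell in the glucose-free IP, against 5 and 2 in the complete IP. The chaperone counts changed to 8 rising and 1 falling in glucose-free medium with quantile normalization, where 23.4% of tested genes rose and 23.6% fell. In RPKM as deposited 15 rose in glucose-free and 13 in complete medium, with 0 falling, where 81.7% and 63.6% of tested genes rose. CHAF1A, the large subunit of the chaperone that deposits H3 behind the replication fork, rose by 1.36 ± 0.26 (adjusted p = 0.00186) in glucose-free and by 1.52 ± 0.26 (adjusted p = 0.00114) in complete medium.

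Replication-dependent histones stood beside the variants as the other class of histone mRNA, seen here only as far as poly(A) selection kept it. Of 68 genes, 49 were tested, and 1 rose and 46 fell in the glucose-free IP (median -2.39). Centred after the log, 0 rose and 43 fell in the glucose-free IP, where 17.9% of tested genes rose and 37% fell. With quantile normalization 0 rose and 24 fell in it, where 23.4% of tested genes rose and 23.6% fell. In RPKM as deposited 3 rose and 2 fell in it (median 0.031), where 81.7% of tested genes rose and 5.49% fell. In the complete IP 0 rose and 13 fell (median -0.58). With quantile normalization 27 rose and 3 fell there, where 32.4% of tested genes rose and 27.1% fell. In RPKM as deposited 26 rose and 2 fell there, where 63.6% of tested genes rose and 12.3% fell. The ratio difference passed for 11 of the 49, all lower on scaled RPKM, where 3.08% of tested genes were lower. It was lower for 25 with quantile normalization (7.96% of tested genes). In RPKM as deposited it was higher for 2 (29.3% of tested genes) and lower for 6 (3.08%). HIST1H4C, a replication-dependent H4 gene, had the lowest change, -4.09 ± 0.41 (adjusted p = 7.15e-05) in the glucose-free and -5.36 ± 0.41 (adjusted p = 3.26e-05) in the complete IP, and it passed as lower under the other scalings too. Of 12 further variant genes 4 were tested, and 0 rose in either IP while 2 fell in the glucose-free and 3 in the complete IP. H2AFJ, an H2A variant, fell by 1.56 ± 0.22 (adjusted p = 0.000403) in glucose-free and by 1.57 ± 0.22 (adjusted p = 0.000421) in complete medium, the glucose-free value turning to 0.23 (adjusted p = 0.326) in RPKM as deposited.

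**Figure D5:**
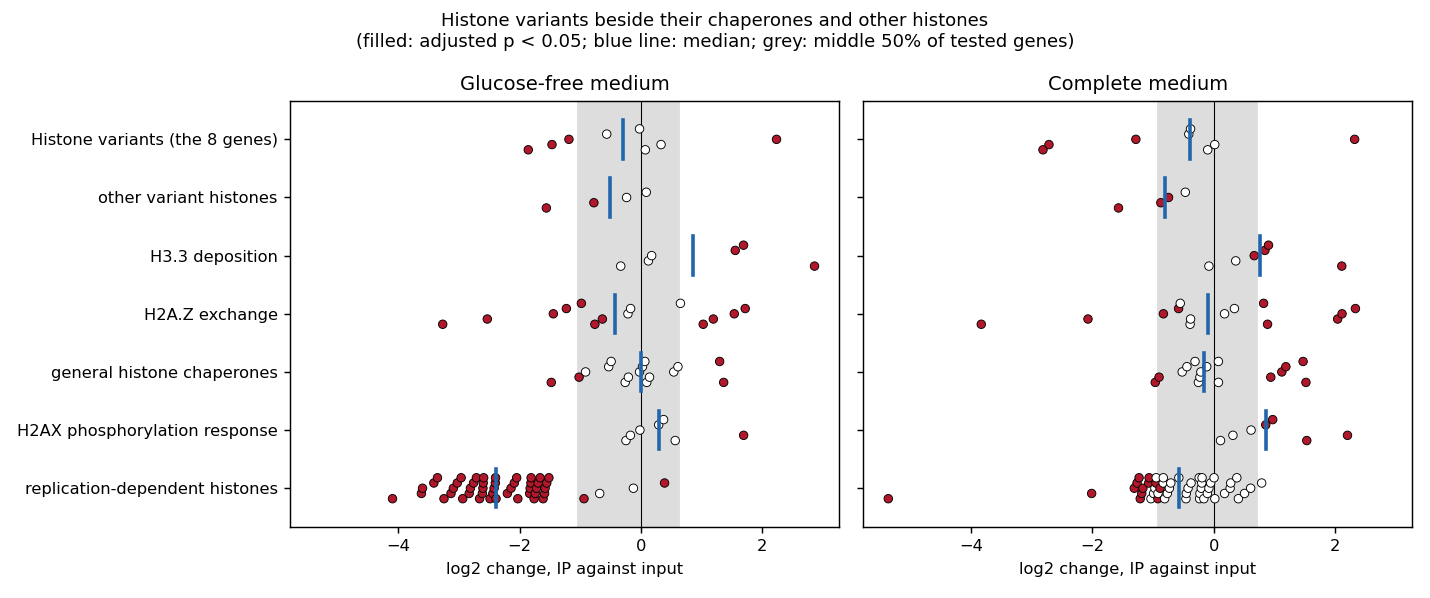
Log2 change of scaled RPKM in the IP against the input (horizontal) in glucose-free (left) and complete medium (right), with a point per tested gene, filled at an adjusted p under 0.05, a blue line at each list's median and the middle 50% of tested genes in grey. The variants spread from -1.86 to 2.23 in glucose-free medium and from -2.82 to 2.32 in complete medium, and 46 of 49 replication-dependent histones fell in glucose-free medium on this scale, against 2 in RPKM as deposited.

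Genes with the most similar pattern were ranked by the root mean square difference of log2 values over the 8 libraries, each gene centred on its mean. For H1F0 they were ZBTB7B (0.11) and TET3 (0.12), for H3F3A EGFL7 (0.20) and UBE2S (0.21), and for H3F3B RBBP8 (0.12) and STRADB (0.16). For H2AFZ they were MPST and SLC25A6 (0.14 each), and for H2AFV STAG3L4 and YBEY (0.15 each). For H2AFX they were SKIV2L and NDRG1 (0.15 each), for H1FX NR2F6 (0.17) and PKMYT1 (0.21), and for H2AFY HSPA4 (0.082) and C17orf80 (0.086). No member was among another member's closest genes. The closest pair of members was H2AFX and H1FX (0.48), the paralogues H2AFZ and H2AFV differed by 0.77 and H3F3A and H3F3B by 1.25, and the widest pair was H2AFZ and H1F0 (2.61).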

How the data were processed

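Poly(A) RNA was sequenced from 2 IP and 2 input libraries in each of 2 media. The deposited values are RPKM, made by the authors 1 table for glucose-free and 1 for complete medium. The tools named, per the submitters' processing notes, are cutadapt, HISAT2 and SAMtools, with the build GRCh38. How strand and multiply matching reads were handled, the counter, the annotation and tool versions were not given in the sources used here. Identifiers numbered 57978 (glucose-free) and 57998 (complete), and the 4 and 3 of them under more than 1 symbol were used 1 time each.

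Library totals were recovered with GENCODE release 29 exon lengths: 97.5% to 98.0% of low values (up to 50 reads) came out as whole reads within 0.02. A floor of 3 reads equals 0.0691 to 0.347 RPM, for counting error only. Genes with a mean of at least 1 RPKM were tested (10100). Each library's RPKM was scaled to 1 common median, log2(value + 1) was taken, and limma 3.58.1 (R 4.3.3, variance trend on intensity) was run on all 4 groups at a time, with Benjamini-Hochberg adjustment over 10100 genes. The fit was also run on simulated reads with known changes, and the outcome is not given here. Sequence features came from GENCODE release 29 with Python 3.11.15. The members and lists were chosen with earlier results of these data known. Named were the 8 members, the highest and lowest tested gene of each list, pseudogenes and antisense genes of members, and the 2 genes most like each member. Other settings were 3 scalings (centred after the log, quantile, none), a pseudocount of 0.1, no filter, a mean of at least 5 RPKM, removal of the trend on exon length, the compared libraries alone, the replicate block and each library left out.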

Additional observations from a re-analysis of the deposited data

How the results depend on the processing

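Settings changed which of the 8 members passed, and causes were not tested. H1F0 rose in both IPs, and H3F3A and H2AFZ fell in the complete IP, under every setting that gave a value. With RPKM as deposited, 8 members rose and 0 fell in the glucose-free IP, where 81.7% of tested genes rose and 5.49% fell. On that scale 5 members rose in the complete IP (63.6% of tested genes) and 2 had a higher ratio difference (29.3%). In the glucose-free input 0 members rose and 2 fell, where 5.12% of tested genes rose and 13% fell. Genes past the threshold on that scale numbered 3270 in the ratio difference and 1828 in the input. Signs turned there in the glucose-free IP for H3F3A (1.21), H2AFZ (0.92), H2AFV (1.37), H2AFX (2.73) and H2AFY (1.29), in the complete IP for H3F3B (1.46), H2AFV (0.13), H2AFX (1.27) and H1FX (1.22), in the ratio difference for H2AFY (0.070) and H1F0 (0.88), and in the input for H3F3B (-0.0033), H2AFY (-0.41) and H1FX (-0.23). With quantile normalization 4 members rose and 0 fell in the glucose-free IP, where 23.4% of tested genes rose and 23.6% fell. In the complete IP 2 members rose (32.4% of tested genes), and 1 (H2AFZ) had a higher ratio difference (7.51%). None rose in the input (10.3%). Genes past the threshold under it numbered 1563 in the ratio difference and 1761 in the input. H2AFZ (0.76) and H2AFX (2.44) turned in the glucose-free IP, and H3F3B (0.71), H2AFX (2.10) and H1FX (1.42) in the complete IP. H1FX (-0.11) turned in the input. Centred after the log, 2 members rose and 1 fell in the glucose-free IP, where 17.9% of tested genes rose and 37% fell. None rose in the input (8.73% of tested genes). Genes past the threshold under it numbered 1491 in the ratio difference and 1275 in the input. H2AFX (0.82) turned in the glucose-free IP, and H3F3B (0.25), H2AFX (0.068) and H1FX (0.016) in the complete IP. H1F0 (0.17) turned in the ratio difference and H2AFY (-0.0019) in the input. With the length trend removed, 2 members rose and 1 fell in the input, where 17.2% of tested genes rose and 18% fell. H3F3B (-0.21) and H2AFX (0.62) turned in the glucose-free IP, and H2AFX (0.39), H2AFY (-1.06) and H1FX (0.38) in the complete IP. With a mean of at least 5 RPKM fewer genes were tested and H2AFY had no value. Under that filter 1 member fell in the glucose-free IP (35.3% of tested genes) and 1 in the input (25.5%). The genes that passed numbered 2996, 2923, 230 and 1681 in the glucose-free IP, complete IP, ratio difference and input. H3F3B (0.28) and H2AFX (0.025) turned in the complete IP and H2AFX (0.46) in the glucose-free IP. With no filter 1 member fell in the glucose-free IP (9.26% of tested genes) and 0 rose in the input (4.94%). The ratio difference then passed for 124 genes, against 218 with a pseudocount of 0.1. A pseudocount of 1 moved the glucose-free IP to input difference of the paralogue ratios to 1.52 for H3F3B to H3F3A and -0.45 for H2AFZ to H2AFV.

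Leaving out each library gave 4335 to 6787 genes in the glucose-free IP, 5316 to 6187 in the complete IP, 71 to 2660 in the ratio difference and 1041 to 4641 in the input. Members rising and falling numbered 1 and 1 to 4 in the glucose-free IP, 1 and 3 to 4 in the complete IP, 0 to 1 and 0 in the ratio difference, and 0 to 2 and 0 in the input. Signs turned within these ranges: in the glucose-free IP H3F3B (-0.067 to 0.21) and H2AFX (-0.14 to 0.092); in the complete IP H3F3B (-0.41 to 0.21), H2AFX (-0.95 to 0.18), H2AFY (-0.32 to 0.35) and H1FX (-1.15 to 0.32); in the ratio difference H3F3B (-0.13 to 0.48), H2AFV (-0.50 to 0.70), H2AFX (-0.21 to 0.93) and H1F0 (-0.23 to 0.066); in the input H2AFY (-0.28 to 0.39). Where a library left its group with 1, that library was assumed to vary like the others. The labels do not say whether same-numbered libraries came from the same cells. Their deviations correlated at r of -0.096 to 0.13, which does not decide it. The replicate block gave 6004, 6011, 479 and 3344 genes in the glucose-free IP, complete IP, ratio difference and input, and changed no member's call. The compared libraries alone give no value for the ratio difference, which uses all 8. Every member had at least 285 reads in each library, and each group had 2 libraries.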
